A study of Arabidopsis thaliana with 4 samples.

Results

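The genes described here are those of the chloroplast genome for subunits of the NDH complex, taken as every probe set whose annotation held exactly 1 gene and whose gene was ndh followed by a letter from A to K on the plastid chromosome. RefSeq lists 11 such genes, and 10 of them had a probe set of their own, out of 13356 genes named singly and 22746 probe sets tested. The probe set for ndhB carries both copies of that gene, which lies in the inverted repeat, so it was not a member and is given apart. Of the 10 members, 3 come from the ndhC-K-J operon, 6 from the operon of the small single-copy region, and 1, ndhF, from neither.

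The arrays came from whole seedlings of Arabidopsis thaliana, ecotype Columbia, labelled as 15 days old. In 1 group of 2 arrays the seedlings had been given GSH (reduced glutathione, the main thiol tripeptide of plant cells) for 72 hours, and the other group of 2 arrays held control seedlings of the same ecotype and labelled age. The dose and the way GSH was given are not stated in the sources used here, and the treatment text attached to the control arrays is the same as that of the treated ones, so the titles decided the groups. Replicates are called biological in the titles, without a word on separate cultures, and the p-values cover the spread between these 4 arrays, which may be technical.

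The NDH complex sits in the thylakoid membrane of the chloroplast and resembles complex I of the respiratory chain. It passes electrons from ferredoxin to plastoquinone, serves cyclic electron flow around photosystem I and chlororespiration, and pumps protons as it does so. Its plastid-encoded subunits make up a membrane arm (NdhA to NdhG) and part of a stromal arm (NdhH to NdhK), while further subunits are encoded in the nucleus. The plastid genes are read as long shared transcripts that are then cut, spliced and edited.

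Plastid ndh transcripts gave lower signals on the GSH arrays at 6 of 10 genes, none passed the threshold in the other direction, and the size of the difference varied widely from gene to gene. The lowest were ndhE (-1.79 ± 0.22 log2 units, SE, n = 2 per group), ndhK (-1.59 ± 0.07) and ndhG (-1.47 ± 0.09), and ndhJ, ndhD and ndhA were lower by smaller amounts. For ndhC, ndhF, ndhH and ndhI the test was not passed. All values are the authors' log2 signals, on which 1 unit is a 2-fold difference, and the threshold was an adjusted p of 0.05 in limma (Benjamini-Hochberg, over all probe sets). Of all probe sets tested, 17.5% were lower and 16.2% higher by that rule, 33.8% in all. At an unadjusted p under 0.05 in limma, 8 members were lower and 0 higher, against 22.5% and 20.3% of all probe sets. The adjusted calls depend on the spread that limma shares across probe sets: without that moderation 2 of the 10 genes, ndhK and ndhJ, were lower, and ndhE, ndhG, ndhD and ndhA did not pass (adjusted p = 0.141, 0.0545, 0.122 and 0.0900). Of the 59 other plastid-encoded genes measured, 67.8% were lower and 3.39% higher. The median difference was -0.54 over the 10 ndh genes, -0.60 over the 59 other plastid genes and -0.01 over all probe sets.

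The groups did not overlap for 8 members that were lower on both GSH arrays, against 34.0% of all probe sets, and for 1 that was higher on both, ndhC, against 31.2% of all probe sets. Only ndhF had overlapping groups. At least 2-fold lower without overlap were 3 members, ndhE, ndhK and ndhG, against 1.69% of all probe sets. Other plastid-encoded genes did likewise: of 59, 52 were lower without overlap and 24 were at least 2-fold lower. By place in the complex, 2 of the 4 stromal arm genes measured (ndhJ and ndhK) and 4 of the 6 membrane arm genes measured (ndhA, ndhD, ndhE and ndhG) were lower. The median differences of these arms were -0.60 and -0.54 log2 units.

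**Figure D1:**
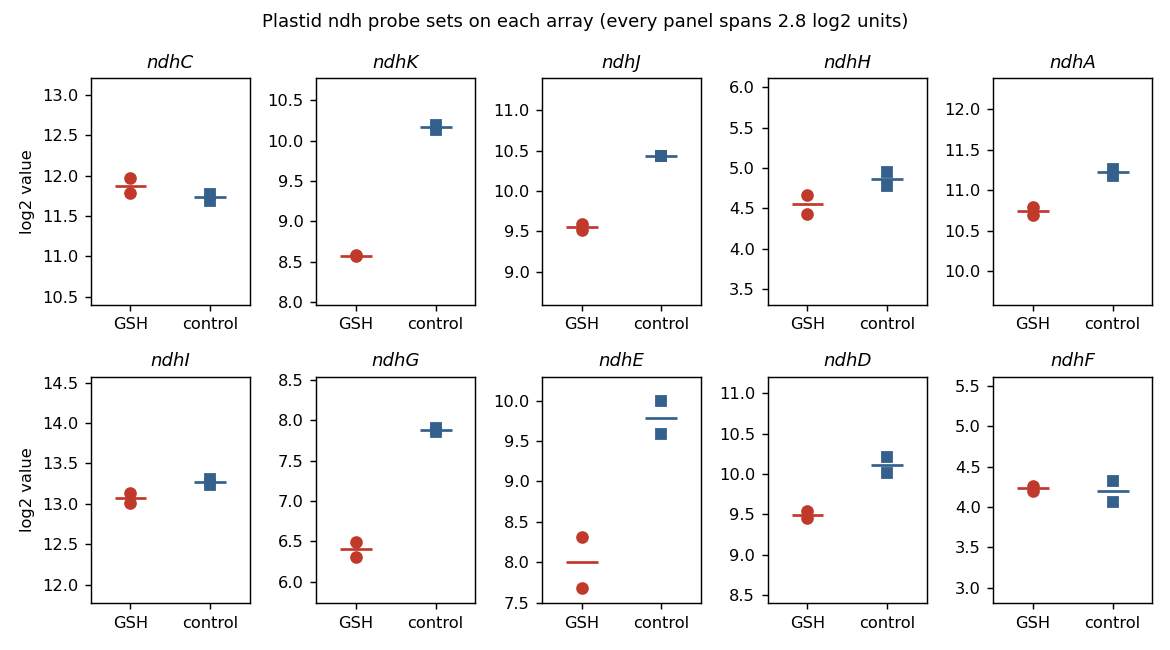
Log2 signal (vertical axis) of the 10 plastid ndh probe sets on the 2 GSH arrays (red circles) and the 2 control arrays (blue squares), with group means as lines and every panel at the same span. Both groups lie far apart for ndhK, ndhG and ndhE, close together for ndhC, ndhI and ndhH, and overlap for ndhF.

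The ndhC-K-J operon held both a strongly lower gene and one that did not pass. The first gene, ndhC, codes for a small membrane subunit. The log2 signal of ndhC was 11.97 and 11.79 on the GSH arrays, against 11.69 and 11.77 on the control arrays. The GSH arrays lay just above both control arrays, the difference of 0.15 ± 0.09 did not pass (limma adjusted p = 0.251), and its 95% interval ran from -0.06 to 0.36.

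The next gene, ndhK, codes for the stromal arm subunit that carries the iron-sulfur cluster closest to the quinone site, as known from complex I of bacteria. On the log2 scale ndhK stood at 8.58 and 8.57 on the GSH arrays, against 10.19 and 10.14 on the control arrays. The GSH arrays were alike and lay far below the controls, a 3.01-fold lower signal (log2 difference -1.59 ± 0.07, limma adjusted p = 2.28e-05). Among the 10 members it had the smallest p.

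The last gene of the operon, ndhJ, codes for another stromal arm subunit. It gave log2 signals of 9.59 and 9.52 on the GSH arrays, against 10.44 and 10.43 on the control arrays. Both GSH values were lower than both control values, by 1.84-fold (log2 difference -0.88 ± 0.07, limma adjusted p = 0.000212).

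Within the small single-copy operon, read in the order ndhH, ndhA, ndhI, ndhG, ndhE, psaC and ndhD, all 6 ndh genes were lower on both GSH arrays and 4 of them passed the threshold. Among the 59 other plastid-encoded genes, 52 were lower on both GSH arrays and 40 passed as lower. Over all probe sets these shares were 34.0% and 17.5%. The middle genes ndhG and ndhE differed more than 2-fold, and the genes before and after them less. The gene at the front, ndhH, codes for the stromal arm subunit that helps to form the quinone site. Its signals on the log2 scale were 4.43 and 4.67 on the GSH arrays, against 4.95 and 4.78 on the control arrays. The groups were close to each other on dim signals that were not shown to be above background, and the difference of -0.31 ± 0.11 did not pass (limma adjusted p = 0.0642). With each array left out in turn it ran from -0.43 to -0.19. It passed in limma without GSH replicate 2 (adjusted p = 0.0355) and without control replicate 2 (-0.40, adjusted p = 0.0427), and did not pass without GSH replicate 1 (-0.19, adjusted p = 0.251) or control replicate 1 (-0.22, adjusted p = 0.238). Centred on spiked-in Bacillus RNA it was -0.17 (limma adjusted p = 0.363).

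The gene ndhA, which is interrupted by an intron, codes for the membrane subunit at the joint with the stromal arm. Its log2 signal was 10.79 and 10.70 on the GSH arrays, against 11.27 and 11.18 on the control arrays. Arrays of a group differed by 0.09 at most, and the signal was 1.39-fold lower (log2 difference -0.48 ± 0.08, limma adjusted p = 0.00343).

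The gene ndhI codes for a stromal arm subunit with iron-sulfur clusters. It gave 13.13 and 13.01 on the GSH arrays, against 13.24 and 13.31 on the control arrays. The GSH values were both below the control values, but the difference of -0.20 ± 0.08 did not pass (limma adjusted p = 0.0926, 95% interval -0.39 to -0.02). Its mean signal was above that of 99.8% of all probe sets, as that of ndhC was above 98.4% of them.

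The membrane subunit gene ndhG gave log2 signals of 6.49 and 6.31 on the GSH arrays, against 7.90 and 7.85 on the control arrays. The groups were far apart, and the signal was 2.78-fold lower (log2 difference -1.47 ± 0.09, limma adjusted p = 6.60e-05).

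The neighbouring gene ndhE codes for another small membrane subunit. Its log2 signal was 8.317 and 7.684 on the GSH arrays, against 9.587 and 9.996 on the control arrays. It was the least repeatable member, with arrays of a group 0.63 apart under GSH and 0.41 apart in controls, yet the groups did not overlap. Its signal was 3.46-fold lower (log2 difference -1.79 ± 0.22, limma adjusted p = 0.00117), and the 95% interval ran from -2.31 to -1.27.

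The last gene, ndhD, codes for a large proton-pumping membrane subunit whose start codon is made by RNA editing. For ndhD the log2 signal was 9.54 and 9.46 on the GSH arrays, against 10.01 and 10.21 on the control arrays. Both GSH arrays were below both controls, by 1.53-fold (log2 difference -0.61 ± 0.09, limma adjusted p = 0.00265).

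The gene ndhF, for another proton-pumping membrane subunit, lies at the far side of the small single-copy region. Its log2 signal was 4.202 and 4.259 on the GSH arrays, against 4.327 and 4.065 on the control arrays. The GSH values lay between the control values, and the difference of 0.03 ± 0.10 did not pass (limma adjusted p = 0.838). Its signals were little above the lowest 25% of probe sets, which ended at a mean of 4.06, with no evidence that they exceed background, so this value says little about ndhF. The shared probe set of the ndhB copies was equally dim, at 4.14 and 4.07 on the GSH arrays, against 4.56 and 4.55 on the control arrays. Its difference was -0.45 ± 0.07 log2 units (limma adjusted p = 0.00321), lower on both GSH arrays.

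**Figure D2:**
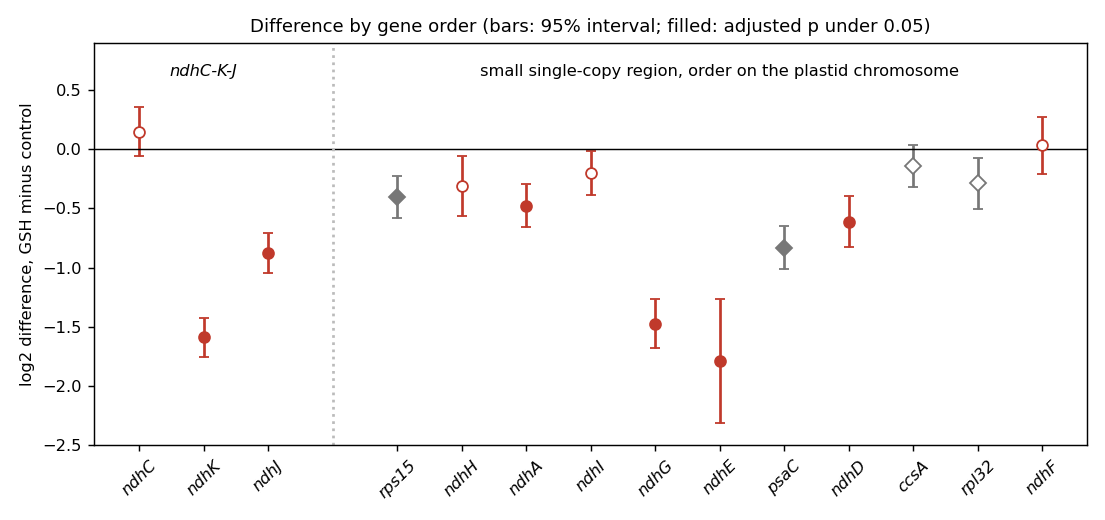
Log2 difference, GSH minus control (vertical axis), of the plastid ndh genes (red circles) and measured genes beside them (grey diamonds), in gene order along the ndhC-K-J operon and the small single-copy region. Bars are 95% intervals and filled symbols passed an adjusted p of 0.05, and ndhG and ndhE stand lowest in the second stretch, at -1.47 and -1.79.

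Of 6 fixed genes that lie beside ndh genes or share their transcripts, 4 had a probe set of their own. Of these 2 passed, both lower, against 17.5% of all probe sets and 67.8% of the 59 plastid-encoded genes outside the ndh set. Inside the small single-copy operon, psaC, for the photosystem I subunit that binds the terminal iron-sulfur clusters, lies between ndhE and ndhD. It gave log2 signals of 6.194 and 6.091 on the GSH arrays, against 6.944 and 7.001 on the control arrays, a difference of -0.83 ± 0.07 (limma adjusted p = 0.000335). Beyond the front end of the operon, rps15, for a ribosomal protein, differed by -0.40 ± 0.07 (limma adjusted p = 0.00587). Between ndhD and ndhF, ccsA, which acts in cytochrome c maturation, stood at -0.14 ± 0.07 and the ribosomal protein gene rpl32 at -0.29 ± 0.09, and neither passed (limma adjusted p = 0.191 and 0.0506).

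Neighbouring ndh genes of an operon were compared within each array by subtracting one log2 signal from the other, so that a shift shared by both cancels. Of 7 pairs, 5 had no overlap between the groups. Of single probe sets 65.2% had none in either direction, but a like share for pairs of probe sets was not taken. The difference ndhC minus ndhK was 3.388 and 3.215 on the GSH arrays, against 1.498 and 1.632 on the control arrays. It was 1.74 log2 units higher under GSH, where the pooled SD between arrays of a group was 0.11. For ndhK minus ndhJ the values were -1.01 and -0.95 on the GSH arrays, against -0.25 and -0.29 on the control arrays. In the other operon, ndhI minus ndhG was 6.64 and 6.71 on the GSH arrays, against 5.34 and 5.46 on the control arrays, a change of 1.27 with a pooled SD of 0.07. The gene ndhE minus ndhD, across psaC, gave -1.22 and -1.77 on the GSH arrays, against -0.42 and -0.22 on the control arrays.

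Smaller changes were seen in the remaining pairs. The difference ndhA minus ndhI changed by -0.28 (pooled SD 0.08), also without overlap. The pairs ndhH minus ndhA (0.17, pooled SD 0.17) and ndhG minus ndhE (0.32, pooled SD 0.32) overlapped between the groups. With 2 arrays per group the exact two-sided permutation test cannot go below p = 0.333, which the 5 pairs without overlap reached (adjusted p = 0.467 over the 7 pairs), while both overlapping pairs had an exact p of 0.667. The test therefore calls no pair, and these changes stand as measured sizes beside their spread. The pairs with ndhC and ndhI hold probe sets at the bright end given above, and whether probe sets respond alike at different signal levels was not tested.

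**Figure D3:**
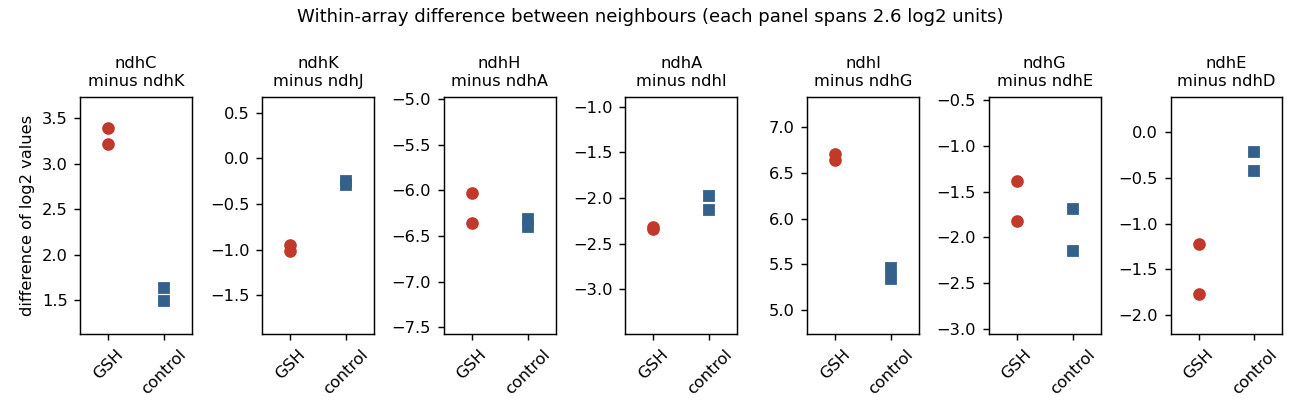
Within-array difference between the log2 signals of 2 ndh genes of an operon (vertical axis) on GSH arrays (red circles) and control arrays (blue squares), for 7 pairs at the same span. The groups lie furthest apart for ndhC minus ndhK (1.74) and ndhI minus ndhG (1.27), while ndhH minus ndhA and ndhG minus ndhE overlap.

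Set among the other plastid genes, the 10 ndh genes spread from -1.79 to 0.15 log2 units, inside the range of the 59 others from -3.28 to 0.37. Among the latter 40 were lower, 2 higher and 17 did not pass. Signals of 25S ribosomal RNA, which the array carries as a control, were lower as well, at 8.190 and 7.999 on the GSH arrays, against 11.110 and 11.010 on the control arrays. The other Arabidopsis control probe sets were not lowered like this. The 5S ribosomal RNA stood at 0.11 and U12639 at -0.04. Actin ranged from 0.04 to 0.18, ubiquitin from 0.05 to 0.13 and GAPDH from 0.16 to 0.35. The part of 25S ribosomal RNA in the lower ndh signals was not tested. In whole seedlings, fewer green cells and less ndh RNA per cell cannot be told apart. Of 11 green tissue markers 4 were measured, and their summed linear signal was 8629 and 9152 on the GSH arrays, against 10804 and 10337 on the control arrays. Among them LHCB4.2, for an antenna protein of photosystem II, differed by -0.42 ± 0.07 and RCA, for Rubisco activase, by -0.24 ± 0.07 (limma adjusted p = 0.00389 and 0.0355), while LHCB4.1 (-0.21) and LHCB4.3 (-0.22) did not pass. The linear sum rests mostly on LHCB4.1, the brightest (means of 12.55 under GSH and 12.76 in controls), and hardly on LHCB4.3 (4.54 and 4.75). The part of green tissue in the lower ndh signals was not tested either. The 3 of 5 root markers measured (PYK10, EXPA7 and EXPA18) summed to 49.8 and 55.9 on the GSH arrays, against 57.5 and 55.6 on the control arrays, and none passed. Group means of these root markers lay between 3.94 and 4.33, near the lowest 25% of probe sets. Nothing shows that they exceed background, so their sums say little about root content. No seed or embryo marker of the 6 listed had a probe set with 1 gene, although the free-text descriptions speak of embryos.

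**Figure D4:**
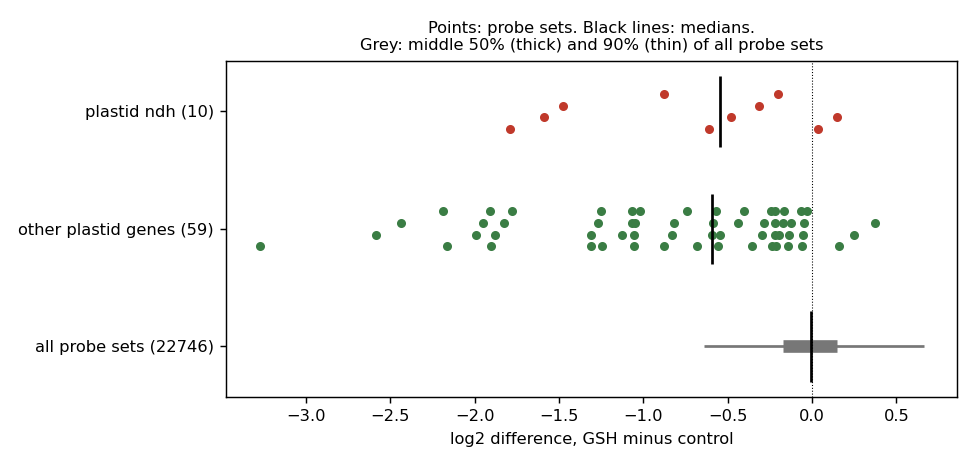
Log2 difference, GSH minus control (horizontal axis), of the 10 plastid ndh probe sets, the 59 other plastid-encoded genes and all 22746 probe sets. Points are probe sets, black lines medians, and the grey bars the middle 50% and 90% of all probe sets, and the ndh genes lie within the range of the other plastid genes.

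Nuclear genes that serve the complex mostly had no probe set named for them alone, and only those with one are counted as measured. As 8730 probe sets carried no gene name, this does not show that the array lacks the others. Of 20 listed nuclear NDH subunits 3 were measured, and 1 was lower, against 17.5% of all probe sets. That gene, NdhS, codes for the stromal subunit where ferredoxin docks. It gave log2 signals of 9.36 and 9.37 on the GSH arrays, against 10.19 and 10.22 on the control arrays. Arrays of a group were nearly alike and the groups lay well apart (log2 difference -0.84 ± 0.07, limma adjusted p = 0.000222). NdhN and NdhL, which belong to the stromal part and the membrane part of the same subcomplex, stood at -0.22 ± 0.07 and 0.11 ± 0.09 on signals near the lowest 25%, and did not pass (limma adjusted p = 0.0632 and 0.404).

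Of 24 listed genes for assembly of the complex and for editing and processing of its RNA, 8 were measured. Among these 1 was higher and 7 did not pass. Over all probe sets 16.2% were higher, so 1 of 8 does not stand out. The listed gene that was higher was PIFI, for a stromal protein needed for NDH-dependent chlororespiration. PIFI had log2 signals of 10.71 and 10.76 on the GSH arrays, against 10.36 and 10.32 on the control arrays. Both GSH arrays lay above both controls, the opposite direction to NdhS (log2 difference 0.39 ± 0.07, limma adjusted p = 0.00544). The RNA editing factors CRR22 (-0.18), OTP85 (-0.21), CRR28 (0.11) and CRR21 (-0.04) did not pass, nor did CRR42 (-0.05), and group means of these 5 lay between 3.74 and 4.79.

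Of 14 genes for other routes of cyclic electron flow and chlororespiration 3 were measured, and 1 was lower, against 17.5% of all probe sets. TROL, which tethers ferredoxin-NADP reductase to the thylakoid membrane, had log2 signals of 6.89 and 7.06 on the GSH arrays, against 7.59 and 7.74 on the control arrays. It was the single one to pass, with both GSH arrays below both controls (log2 difference -0.69 ± 0.09, limma adjusted p = 0.00165). NDC1, another NAD(P)H dehydrogenase of the chloroplast, and PGRL1B, of the antimycin-sensitive route, stood at -0.13 ± 0.08 and 0.05 ± 0.07 and did not pass. None of 19 listed nuclear regulators of plastid transcription had a probe set with 1 gene.

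Mitochondrial genome genes for complex I, the respiratory relative of the NDH complex, were lower at 5 of the 8 measured of 9 listed, and 3 did not pass. Of all probe sets 17.5% were lower by the same rule. The median difference of the 8 measured genes was -0.30 log2 units, against -0.54 for the plastid ndh genes. For nad4, nad2 and nad5, all membrane arm subunits, the differences were -0.77 ± 0.08, -0.76 ± 0.11 and -0.62 ± 0.07 (limma adjusted p = 0.000668, 0.00224 and 0.000755). Smaller differences passed for nad4L (-0.34 ± 0.08) and nad9 (-0.23 ± 0.07), while nad7 stood at -0.25 ± 0.09 and did not pass (limma adjusted p = 0.0189, 0.0412 and 0.0775). The other members were not lower: nad1 stood at 0.20 ± 0.09, above both controls on both GSH arrays, and nad6 at 0.05 ± 0.09, and neither passed (limma adjusted p = 0.157 and 0.712).

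The genes whose pattern over the 4 arrays was nearest to the median ndh pattern were found by the root mean square distance between log2 values centred on each gene's own mean. The members' median pattern stood at -0.27 and -0.32 on the GSH arrays, against 0.26 and 0.30 on the control arrays. Nearest were AT1G66760 at a distance of 0.0065 log2 units, GAMMA-VPE, for a vacuolar protease, at 0.0067, psbF, for a cytochrome b559 subunit of photosystem II, at 0.0084, AT3G06410 at 0.010 and AT3G46600 at 0.011. Their differences lay between -0.58 and -0.57. Among plastid genes psbF was followed by the ribosomal protein genes rps19 and rpl22, at 0.025 and 0.027. With 4 arrays this likeness mostly restates a like difference between the groups.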

How the data were processed

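Labelled cRNA from total RNA of 4 seedling samples was hybridised to Affymetrix one-colour arrays, 2 per group. The deposited values are log2 signals per probe set, made by the authors with RMA in Affymetrix Expression Console, per the submitters' processing notes; versions are not given in the sources used here. RMA corrects background, normalizes arrays to the same quantiles and summarises probes by median polish. Quantile normalization hides a change shared by most transcripts. No detection calls were used, and the number of arrays limits the precision. Median log2 signals were 5.33 and 5.34 on the GSH arrays and 5.37 and 5.35 on the control arrays. Arrays of a group correlated at 0.998 across probe sets and arrays of different groups at 0.982, a description, since genes are not replicates.

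Probe sets were named from the platform annotation of the array, updated by gene identifier to RefSeq (TAIR10.1), which gave 13513 probe sets with 1 gene, 503 with several and 8730 with none. The array's genome build is not named, so only gene order is used and no coordinates are given. The 64 control probe sets entered no test of genes. The test was limma 3.58.1 under R 4.3.3 (lmFit, eBayes, treatment as the single factor, 2 residual and 4.55 prior degrees of freedom). Its code was run on simulated arrays whose spreads were drawn from limma's own fitted prior. Such a run checks the code and cannot show that the prior suits these data. Errors are moderated standard errors. Pairs of genes were compared with scipy 1.17.1 by an exact permutation test over arrays.

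The members and the lists (114 entries, 33 measured) were chosen with earlier results of these data known. All members are named, along with the measured genes beside them, up to 6 genes per list with the smallest p (a gene with several probe sets was taken at the one with the highest mean), the 5 genes nearest in pattern and the 3 nearest plastid genes. The alternatives were other scalings, a filter on dim probe sets, a replicate block, other priors, and leaving out each array. Replicate numbers are shared by the groups, but same-numbered arrays did not deviate together (r = -0.10 over probe sets).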

Additional observations from a re-analysis of the deposited data

How the results depend on the processing

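Of the 7680 probe sets called (3692 higher, 3988 lower), 6186 to 6248 were called when 1 array was left out and 1425 without moderation of the spread. Without moderation 2 ndh genes, ndhK and ndhJ, passed in place of 6, and ndhE (-1.79, adjusted p = 0.141), ndhG (-1.47, adjusted p = 0.0545), ndhD (-0.61, adjusted p = 0.122) and ndhA (-0.48, adjusted p = 0.0900) did not, all in limma's fit with no prior, so the calls on these 4 rest on the spread that limma shares across probe sets. With an intensity trend in the prior ndhI (-0.20) also passed, making 7. The same 6 genes passed with arrays centred on their medians, quantile normalized once more, with the lowest 25% of probe sets left out and with the replicate block, and none was higher under any of these settings. The 27 probe sets of spiked-in Bacillus RNA were themselves lower on the GSH arrays, at a median difference of -0.26, and 11 of them passed as lower. Their differences ran from -0.87 to 0.13. The lowest, for dap, stood at -0.87 and -0.85, near ndhJ (-0.88) and below ndhD (-0.61) and ndhA (-0.48). What this spread means for those ndh genes was not tested. Centring on the median of the Bacillus probe sets moved the median of all probe sets to 0.13. It turned the balance to 4805 higher and 1967 lower (71.0% of calls higher, against 48.1%). The ndh genes then had a median of -0.40 and the same 6 passed, with ndhA at -0.34 close to the threshold (limma adjusted p = 0.0461). With each array left out in turn, 6 or 7 ndh genes were lower, 0 were higher and their median ran from -0.59 to -0.50. In those fits ndhE ran from -2.11 to -1.47, ndhK from -1.61 to -1.56, ndhG from -1.57 to -1.38, ndhJ from -0.92 to -0.84, ndhD from -0.71 to -0.51, ndhA from -0.52 to -0.43, ndhH from -0.43 to -0.19, ndhI from -0.26 to -0.14 and ndhC from 0.06 to 0.24, and ndhF from -0.10 (without control replicate 2) to 0.17. Among the pairs, ndhC minus ndhK ran from 1.65 to 1.82, ndhK minus ndhJ from -0.74 to -0.68, ndhI minus ndhG from 1.21 to 1.33, ndhE minus ndhD from -1.45 to -0.90, ndhA minus ndhI from -0.35 to -0.20, ndhG minus ndhE from 0.09 to 0.54 and ndhH minus ndhA from 0.00 to 0.33. With a replicate block, which leaves 1 residual degree of freedom, 6235 probe sets and 6 ndh genes were called, and with crossed numbers, added after the data were seen, 6898 and 7. Dim signals limit what ndhF, ndhH and ndhB can show.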
